A study of Homo sapiens with 2 samples.

Results

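A159 is a compound known here only by its code name, and its target and dose are not given in the labels used here. Its wells were chosen by the compound name in the deposited well annotation, which gives 2 wells, 1 of the 96 on each of the 2 plates that make up the series. They were compared with the 24 DMSO wells, 12 per plate, that received the vehicle alone, and were set beside 6 wells of AZ5576, 2 of DRB and 2 of THZ1. All wells held K562, a human leukaemia cell line long in culture that runs an erythroid gene programme, kept with the compound or the vehicle for 6 h. The series held 74 treatment names beside DMSO, in the main inhibitors of transcription and epigenetic regulators, with the 2 plates as technical duplicates. The names include the vehicle EtOH and pairs as close as PCI_34051 and PCI34051. Some, such as AZ5576, fill more than 1 well per plate. RNA was read by MAC-seq, in which reverse transcription gives each well a barcode, each plate becomes 1 library, and reads come from the 3′ ends of mRNAs. The duplicates are wells of 1 experiment with 1 line, so each p-value below measures the spread between such wells only.

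AZ5576 and DRB are inhibitors of CDK9, the kinase of P-TEFb, and THZ1 is a covalent inhibitor of CDK7, the kinase of TFIIH, which also acts on CDK12 and CDK13. P-TEFb releases RNA polymerase II from its pause near the start of a gene, and it is held inactive in a complex with the 7SK RNA and HEXIM1. When nuclear transcription is slowed, short-lived mRNAs such as those of immediate early genes and many transcription factors are lost first, whereas long-lived mRNAs such as those of globins and ribosomal proteins remain. Mitochondrially encoded mRNAs are made by a separate polymerase in the mitochondrion. The doses of all 4 compounds are absent from the labels, so the profiles stand side by side at doses that may differ.

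The A159 wells held 592162 and 544117 counts to human genes, against 173553 to 1030810 (median 728692) in DMSO wells. They had 12809 and 12660 genes with at least 1 count, and DMSO wells had 11467 to 15552 (median 14675). Of the 12 erythroid markers fixed for the check of the cell line, 12 had reads in A159 wells, with a summed level of 30060 to 30580 CPM, the count scaled to a fixed library total, against 23050 to 28570 in DMSO. Markers of T cells summed to 79.4 to 88.2 CPM against 54.2 to 103 in DMSO, and those of epithelial cells to 74.3 to 84.5 against 40.3 to 85.6. Of the 4 monocyte markers 2 had reads in A159, with sums of 21.9 and 22.1 CPM against 0 to 17.9 in DMSO, B cell markers summed to at most 3.68 CPM, and the 3 fibroblast markers were at 0. The part of the monocyte reads in any result was not tested.

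The amount of human RNA in a well was measured against the ERCC RNAs, synthetic transcripts that came with the reverse transcription mix. Human counts per ERCC count were 3.50 on plate 1 and 3.57 on plate 2, against 2.95 to 7.03 (median 4.93) in DMSO wells. Both A159 values lay in the lower part of the DMSO range and overlapped it. The mean log2 difference within plates was -0.43, a ratio of 0.744, with p = 0.0592 in an exact two-sided permutation test over all arrangements within plates, of which the smallest possible p is 0.00592. The 8 DMSO wells of the first plate column were shallow and had ratios of 2.95 to 4.33. Against the other 16 DMSO wells, which ranged from 4.34 to 7.03, the difference was -0.60 with an exact p of 0.0123, the smallest those wells allow. With positions exchanged as pairs the exact p over all DMSO positions was 0.231. Fewer cells and less RNA per cell cannot be told apart in such wells.

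The share of human counts from mitochondrially encoded mRNAs was 12.1% and 11.5% in the A159 wells. It ran from 7.64% to 9.78% (median 8.80%) in DMSO wells, so that the groups did not overlap. The log2 difference was 0.43 (exact two-sided permutation p = 0.00592, the smallest that exchanging single wells within a plate allows). With the wells of a position kept together as a pair, a test added after the data were seen, the 13 positions gave an exact p of 0.0769, again the smallest possible, so that test cannot pass 0.05. AZ5576 wells had 10.7% to 12.5%, DRB wells 10.1% and 10.8%, and THZ1 wells 10.5% and 11.8%.

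**Figure D1:**
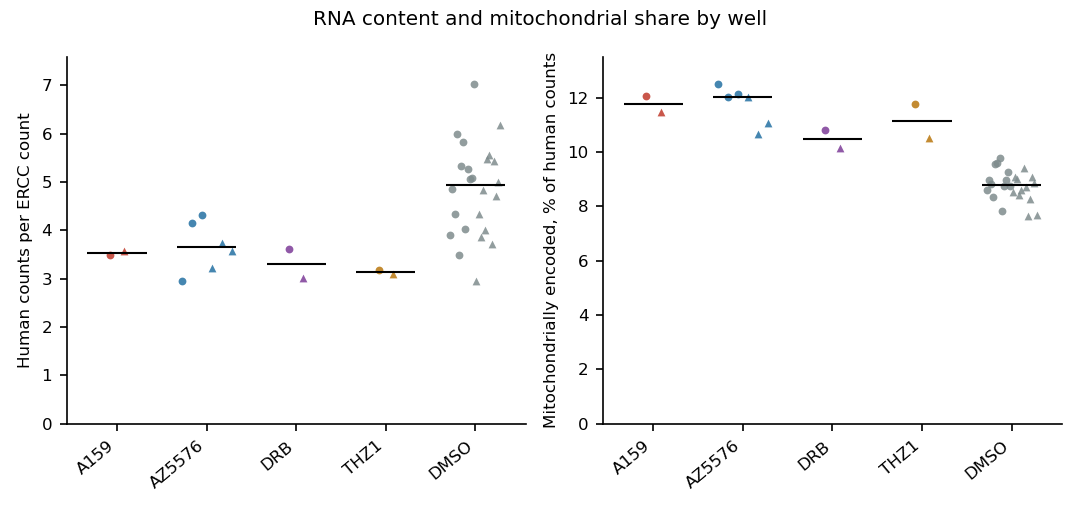
Human counts per ERCC count (left) and percent of human counts from mitochondrially encoded mRNAs (right) in each well of A159, AZ5576, DRB, THZ1 and DMSO, with plate 1 as circles, plate 2 as triangles and a bar at the group median. The A159 wells sit at 3.50 and 3.57 on the left, inside the DMSO range, and at 12.1% and 11.5% on the right, above all DMSO wells.

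Transcript levels below are CPM normalised with TMM factors, and differences are log2 values of a model with a term for each treatment and for the plate. A single read in an A159 well was worth 2.01 CPM on plate 1 and 2.18 CPM on plate 2, which sets the precision for low genes. With an adjusted p below 0.05 (edgeR quasi-likelihood test, Benjamini-Hochberg adjustment over 10312 genes), 961 genes were higher in A159 than in DMSO, 9.32% of those tested, and 1211 were lower, 11.7%. In all, 21.1% of tested genes differed, 2172, and 947 or 769 passed without the A159 well of plate 1 or of plate 2. The falls were deeper than the rises: 1016 genes were at least 2-fold lower and 89 at least 2-fold higher. The higher genes were mostly of high level, since 865 of the 961 had a mean log2 CPM of 5 or more, against 457 of the 1211 lower genes. At that level 3861 genes were tested, so the share that rose was larger there than over all genes. The median gene stood at -0.13 with TMM factors, at -0.40 when scaled to library size and at -0.89 when scaled to ERCC counts, so that the split between higher and lower rests on the scaling. The 2 directions held 222 and 2138 genes with library size, 28 and 5583 with ERCC counts, and 858 and 613 with DESeq2 and its size factors.

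The DMSO wells themselves differed from other wells. Against 70 wells of 34 treatments with other targets, a reference chosen after the data were seen, 1991 genes differed in DMSO (19.3% of those tested), 1145 higher (11.1%) and 846 lower (8.2%). MYC was at -0.63 in DMSO by that measure, KLF1 at -0.77, GATA1 at -0.84 and NFE2 at -1.05. A159 differed from the 34 treatments in 2226 genes (21.6%), of which 1793 are among the 2172 called against DMSO. MYC stood at -2.86 and KLF1 at -3.65 in A159 against that reference, so both were further below it than below DMSO. The part of the DMSO wells' own difference in the results below was not tested.

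Transcription factors of the erythroid programme were among the genes that fell in A159. Of 15 tested members of 19, 8 fell and 0 rose, and the median difference was -1.43 against -0.13 over all tested genes. The counts of this and every later list stand beside 11.7% lower and 9.32% higher over all tested genes. The largest fall was that of KLF1, which switches on adult globin and other red cell genes. KLF1 stood at 14.1 and 21.8 CPM in the A159 wells and at 83.2 to 179 CPM (median 126) in DMSO wells. Both A159 wells were below every DMSO well, and the difference was -2.88 ± 0.26 (SE, adjusted p = 4.44e-19).

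GFI1B, a repressor needed for red cell and platelet precursors, had 8.03 and 6.53 CPM in A159 against 34.9 to 64.2 (median 49.4) in DMSO, a difference of -2.72 ± 0.39. NFE2, which drives globin and platelet genes, had 32.1 and 43.5 CPM against 79.1 to 188 (median 121) and differed by -1.75 ± 0.22. HHEX, a homeobox factor of blood progenitors, fell by 1.63 ± 0.31, from a DMSO median of 61.2 CPM to 24.1 and 15.2 CPM. None of these 3 genes overlapped between A159 and DMSO. GATA1, the master factor of the lineage, moved less: it had 167 and 187 CPM against 141 to 345 (median 255), within the DMSO range, and a difference of -0.45 ± 0.16 (adjusted p = 0.0263). That call was lost without the DMSO wells of the first column (-0.33, adjusted p = 0.0937) and without either A159 well, whereas GATA1 stood at -1.30 (adjusted p = 8.32e-13) against the 34 other treatments and at -1.21 with ERCC scaling. NFE2 stood at -2.80 against the 34 treatments.

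The promoter windows of 3 genes that fell with high counts in DMSO are shown for orientation, taken from RefSeq (GRCh38.p14) and running from 250 bases before to 50 after the start, 5′ to 3′ on the gene's strand. Capitals mark matches to 3 motifs on either strand, and neighbouring matches can share bases. The motif CCAAT is bound by the factor NF-Y. The letters TATAAA are those of the core promoter element called the TATA box. The letters GATAA are the core of sites bound by GATA1. The windows lie at chr19:12887152-12887451 on the minus strand for KLF1, chr20:31605039-31605338 on the plus strand for ID1 and chr19:14529222-14529521 on the minus strand for DNAJB1.
KLF1: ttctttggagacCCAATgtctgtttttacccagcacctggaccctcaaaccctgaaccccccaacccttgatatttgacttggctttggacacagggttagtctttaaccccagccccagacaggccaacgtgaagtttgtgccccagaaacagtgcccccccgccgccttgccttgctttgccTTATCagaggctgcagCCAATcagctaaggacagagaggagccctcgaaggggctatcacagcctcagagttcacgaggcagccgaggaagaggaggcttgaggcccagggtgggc
ID1: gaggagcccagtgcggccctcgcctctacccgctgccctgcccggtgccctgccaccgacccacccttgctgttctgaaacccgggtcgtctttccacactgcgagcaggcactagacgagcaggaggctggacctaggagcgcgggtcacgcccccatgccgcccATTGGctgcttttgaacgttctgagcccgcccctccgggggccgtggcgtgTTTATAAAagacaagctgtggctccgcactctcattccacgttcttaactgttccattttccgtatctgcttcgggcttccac
DNAJB1: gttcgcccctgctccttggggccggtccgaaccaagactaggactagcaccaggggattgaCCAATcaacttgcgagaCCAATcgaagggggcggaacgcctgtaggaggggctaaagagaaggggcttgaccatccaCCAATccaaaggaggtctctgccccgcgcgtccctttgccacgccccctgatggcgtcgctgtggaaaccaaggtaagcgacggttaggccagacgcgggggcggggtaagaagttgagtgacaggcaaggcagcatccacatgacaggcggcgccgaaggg
KLF1 holds 2 CCAAT matches and a GATAA match, ID1 a CCAAT match and 2 overlapping TATAAA matches, and DNAJB1 holds 3 CCAAT matches. Of all 35116 promoters in the set, 34.6% hold CCAAT, 11.5% TATAAA and 22.7% GATAA. Of the 6993 tested genes with a window, 38.6% hold CCAAT, 5.11% TATAAA and 13.4% GATAA. The 3 windows thus share only CCAAT, a common element. Among genes with a window, CCAAT was held by 42.4% of the lower and 37.2% of the higher genes. TATAAA was held by 5.74% and 6.33%, and GATAA by 12.3% and 14.2%. These shares were not tested against each other, since only 54.2% of the higher and 80.6% of the lower genes had a window.

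Immediate early genes, which respond to growth factors within minutes and whose mRNAs are short-lived, gave the lowest list median, -1.96. Of 29 tested members of 39, 16 fell and 0 rose. MYC, the growth-promoting transcription factor, had 22.1 and 23.9 CPM in A159 against 55.3 to 143 (median 109) in DMSO, with no overlap, and a difference of -2.23 ± 0.26 (adjusted p = 2.46e-12). ID1, an inhibitor of basic helix-loop-helix factors whose promoter is printed above, had 20.1 and 21.8 CPM against 97.4 to 224 (median 138) and fell by 2.74 ± 0.28. JUNB, an AP-1 subunit, was lower at 26.1 and 17.4 CPM against 28.4 to 75.3 (difference -1.08 ± 0.31). IER2, another early response gene, did not pass: it had 58.2 and 39.2 CPM against 47.5 to 86.4, a difference of -0.37 ± 0.23 (adjusted p = 0.269). For FOS and JUN, the founding AP-1 subunits, the A159 wells held 1 and 0 reads in all, and DMSO medians of 0 and 3.58 CPM left nothing to compare at this depth.

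Survival regulators had 6 falls and 1 rise among 15 tested members of 19 (median -0.76). PIM1, a short-lived survival kinase, had 42.1 and 28.3 CPM against 102 to 194 (median 146) and fell by 1.97 ± 0.24. For its paralogue PIM3 the A159 wells held 0 reads, where DMSO wells held 456 in all (19.0 to 42.1 CPM). Set against the floor of 3 reads over the group, PIM3 was at least 9.21-fold lower. MYB, a factor of blood progenitors, fell by 1.99 ± 0.37. MCL1, the short-lived anti-apoptotic BCL2 relative, had 24.1 and 19.6 CPM against 23.1 to 54.4 (median 37.5), so the groups overlapped, and its difference of -0.74 ± 0.30 did not pass (adjusted p = 0.059). BIRC5, which encodes survivin, was the member that rose, to 307 and 276 CPM from 137 to 235 (0.62 ± 0.11), although it stood at -0.12 with ERCC scaling.

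**Figure D2:**
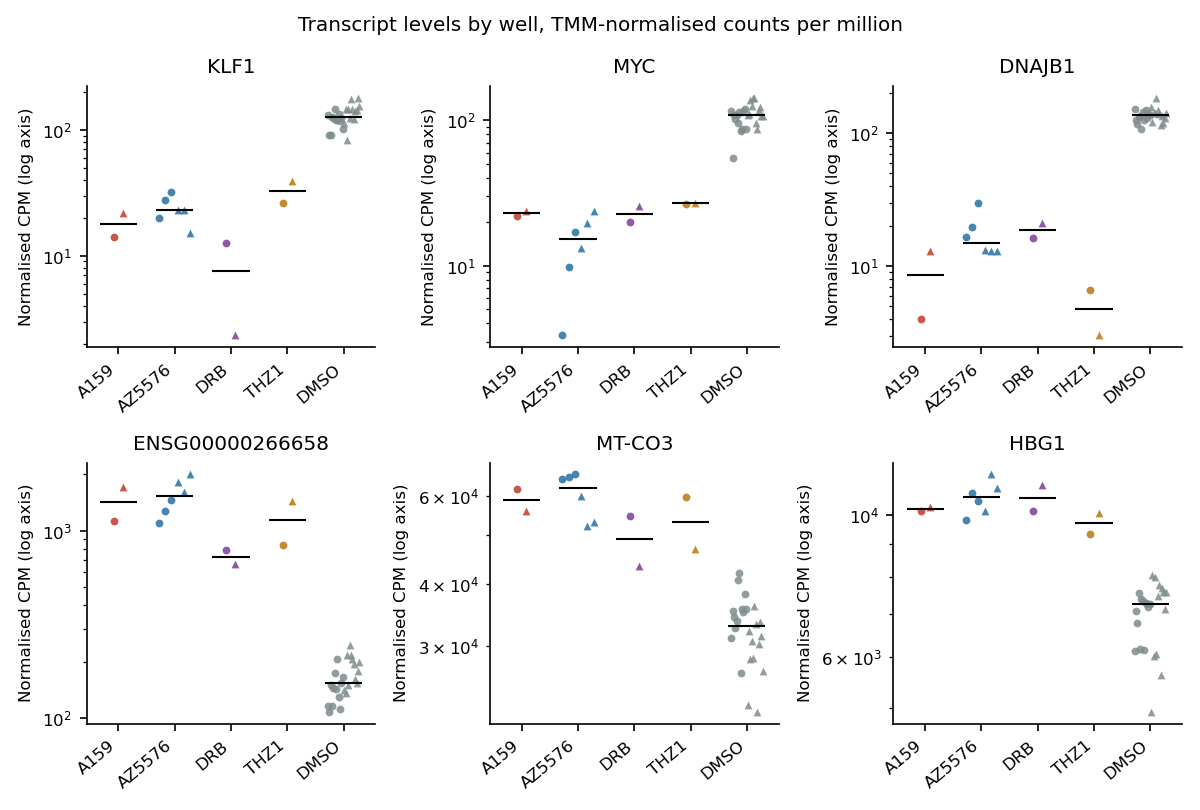
Normalised CPM on a log axis in each well for KLF1, MYC, DNAJB1, ENSG00000266658, MT-CO3 and HBG1 (plate 1 circles, plate 2 triangles, bar at the median). A159 wells lie below all DMSO wells for the first 3 genes and above them for the other 3, although the difference for HBG1 turns from 0.54 to -0.21 with ERCC scaling.

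Stress genes were among the genes that fell. Of 24 listed genes of the integrated stress and unfolded protein responses 21 were tested, of which 10 fell and 0 rose (median -1.10). DDIT4, an inhibitor of mTORC1, had 14.1 and 8.71 CPM against 33.9 to 80.3 (median 55.1), a difference of -2.25 ± 0.35. PPP1R15A, the inducible subunit that reverses eIF2α phosphorylation, had 10.0 and 4.35 CPM against 21.03 to 55.6 and fell by 2.05 ± 0.41. ATF4, the central factor of the pathway, had 30.1 and 30.5 CPM against 47.1 to 93.9 (median 65.2) and fell by 1.10 ± 0.25 (adjusted p = 0.000299). Of the 190 wells outside A159, 189 had more ATF4 than both A159 wells. SDF2L1, an endoplasmic reticulum chaperone partner at a higher level, fell by 0.73 ± 0.08, from 826 to 1040 CPM in DMSO to 564 and 516 CPM.

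Among heat shock genes 5 of 19 tested members fell and 2 rose, with a median of -0.15. DNAJB1, an HSP40 co-chaperone and an early target of HSF1, showed 1 of the deepest falls of all, from 108 to 184 CPM (median 136) in DMSO to 4.01 and 13.1 CPM. Those levels rest on 2 and 6 reads, and the difference was -4.00 ± 0.30 (adjusted p = 1.38e-24). HSPA1A, the inducible HSP70, fell by 1.56 ± 0.25 to 28.1 and 30.5 CPM, but it shares near-identical sequence with HSPA1B, so the split of reads between them is uncertain. HSPE1, the mitochondrial HSP10, rose by 0.33 ± 0.09 and stood at -0.42 with ERCC scaling.

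Among genes whose mean log2 CPM was 5 or more, the 10 with the largest falls held between 1 and 8 reads in the A159 wells together. NFKBIL1, a nuclear inhibitor-like protein, had 1 read against 638 in DMSO, a ratio of 0.0259 (95% counting interval 0.000654 to 0.145). AURKA, the mitotic kinase Aurora A, had 2 reads against 735, a ratio of 0.0449 (0.00543 to 0.163). CISH, the STAT5-induced inhibitor of cytokine signalling, had 2 reads against 529, a ratio of 0.0624 (0.00753 to 0.226). These 3 genes were chosen as large falls, so that their upper limits lie below 1 follows largely from the choice. The intervals cover counting error only.

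SDF2, TMEM177 and COA7 had 3 reads each, with ratios of 0.0703, 0.0709 and 0.0810 and intervals that reached 0.206 to 0.238 at the upper end. TNFRSF12A, the receptor of the cytokine TWEAK, had 10.0 and 4.35 CPM against 41.9 to 95.8 (difference -3.21 ± 0.36). NXT1, an mRNA export cofactor, had 8.03 and 8.71 CPM against 46.1 to 102 (-3.12 ± 0.31), and ADPRS, an ADP-ribose hydrolase, had 8.03 and 2.18 CPM against 34.9 to 71.7 (-3.25 ± 0.43). In none of these 10 genes, DNAJB1 included, did an A159 well reach the lowest DMSO well. They were chosen as the largest falls, so this follows largely from the choice and is a description only.

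Genes of the transcription machinery itself also held falls, beside the 11.7% of all tested genes that were lower. Of 20 tested members of 25 of the P-TEFb and 7SK list, 4 fell and 0 rose (median -0.93). They were MEPCE, which caps the 7SK RNA, at 6.02 and 10.9 CPM against 19.2 to 52.0 (-1.84 ± 0.42), BRD2, a BET bromodomain reader, at 22.1 and 13.1 CPM against 28.6 to 97.9 (-1.57 ± 0.37), NELFA, a subunit of the pausing factor NELF (-1.27 ± 0.38), and CCNT1, the cyclin of P-TEFb (-1.80 ± 0.61). CCNT1 rests on 2 reads per A159 well, overlapped the DMSO range and did not pass without either A159 well. HEXIM1, the inhibitor in the 7SK complex, had 8.03 and 13.1 CPM against 11.1 to 42.5 (median 23.9), and its difference of -1.11 ± 0.47 did not pass (adjusted p = 0.0762). CDK9 had 12.04 and 4.35 CPM against 0 to 29.3 (median 14.9), also within the DMSO range, with a difference of -0.88 ± 0.52 (adjusted p = 0.229). With ERCC scaling HEXIM1 at -1.88 and CDK9 at -1.65 passed the threshold, as did MCL1 at -1.51.

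Of 11 tested transcription kinase genes and their cyclins 4 fell and 0 rose (median -0.59), namely CDK7, CDK13, CCNL1 and CCNL2. CDK13 had 0 reads in A159 wells, and CDK7 had 6 and 0 reads; both overlapped DMSO. CCNL2, a splicing-linked cyclin, had 64.2 and 67.5 CPM against 74.2 to 212 and fell by 0.82 ± 0.27. Without the DMSO wells of the first column CCNL1 and CCNL2 no longer passed (adjusted p = 0.0731 and 0.0555). Against the 34 other treatments CCNL1 (adjusted p = 0.0676), CDK13 (0.0566) and CCNT1 (0.143) did not pass. Of 40 subunits of RNA polymerase II and Mediator 6 rose and 6 fell (median -0.26), beside 9.32% higher and 11.7% lower over all tested genes. The catalytic subunit POLR2A had 14.1 and 17.4 CPM against 12.2 to 37.9 and did not pass (-0.58 ± 0.38, adjusted p = 0.292). The small shared subunit POLR2L had 2139 and 2202 CPM against 1307 to 1969 and rose by 0.40 ± 0.08, as did POLR2F (0.45 ± 0.10), but with ERCC scaling the pair stood at -0.36 and -0.30.

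Of 17 snoRNA host genes, whose introns carry the guide RNAs of rRNA modification and whose spliced transcripts are unstable, 11 fell and 2 rose (median -0.47). SNHG12 had 20.1 and 15.2 CPM against 56.5 to 175 (median 90.8), a difference of -2.33 ± 0.36, and SNHG15 had 40.1 and 45.7 CPM against 75.2 to 186 (-1.39 ± 0.23). Neither overlapped DMSO. Of 24 tested ribosome biogenesis genes 6 fell and 1 rose (median -0.34): POLR1C, shared by RNA polymerases I and III, had 28.1 and 19.6 CPM against 66.4 to 114 (-1.99 ± 0.24), and NOP16, a nucleolar protein, had 120 and 111 CPM against 154 to 282 (-0.96 ± 0.13).

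Among 30 tested deadenylation and decay genes 6 fell and 0 rose (median -0.58), beside 11.7% lower over all tested genes. Some members, such as ZFP36L2, are also in the immediate early list and were counted there. ZFP36L2, which brings the deadenylase to AU-rich mRNAs, had 6.02 and 6.53 CPM against 16.6 to 50.1 (-2.26 ± 0.46), and TOB1, an adaptor of the CCR4-NOT complex, had 6.02 and 6.53 CPM against 7.53 to 35.4 (-1.67 ± 0.49). BTG1, of the same adaptor family, had 1 read against 167, a ratio of 0.0988 (95% counting interval 0.00249 to 0.558). Splicing factor genes were split, with 4 rises and 4 falls among 31 tested, beside 9.32% higher and 11.7% lower over all tested genes. Their median of 0.07 turned to -0.21 with library size and -0.68 with ERCC scaling. SRSF5 fell by 1.07 ± 0.27 and SRSF4 by 1.06 ± 0.24, while SRSF3 rose from 274 to 472 CPM in DMSO to 604 and 566 CPM (0.47 ± 0.10, and -0.28 with ERCC scaling). All 3 are serine and arginine rich splicing factors.

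Histone genes had 2 rises and 3 falls among 17 tested, beside the same 9.32% and 11.7% over all tested genes. Their median of 0.06 turned to -0.21 with library size and -0.70 with ERCC scaling. H2AX, the variant marked at DNA breaks, fell by 0.80 ± 0.21, while H2AZ1, a promoter variant, rose by 0.42 ± 0.10 and stood at -0.33 with ERCC scaling. Histone genes have close copies, so these values are uncertain. Mitotic genes had 6 falls and 0 rises among 24 tested (median -0.39). Beside AURKA, the kinase gene PLK1 fell by 0.93 ± 0.20, to 68.2 and 32.6 CPM from 77.5 to 119, and CDK1 by 0.84 ± 0.18, to 78.3 and 76.2 CPM from 59.1 to 181, with overlap for CDK1.

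Several other lists held falls at shares to be read against the 11.7% of all genes. ZNF genes, mostly KRAB zinc finger repressors with short-lived mRNAs, had 51 falls and 2 rises among 179 tested of 549 (median -0.99). The other members of that list were too low to be tested. Of 17 tested genes without introns in their coding sequence 8 fell and 0 rose (median -1.38). CEBPB, a member of that list and a leucine zipper factor, had 2 reads against 491, a ratio of 0.0672 (95% counting interval 0.00811 to 0.244). Homologous recombination and Fanconi genes had 3 falls and 1 rise among 19 tested (median -0.59), and cholesterol synthesis genes 2 falls and 0 rises among 16 tested (median -0.28). Among the falls was MVK, mevalonate kinase, at 12.04 and 4.35 CPM against 28.6 to 66.1 (-2.45 ± 0.38).

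Of 13 mitochondrially encoded mRNAs 12 rose and 0 fell (median 0.65). MT-CO3, a subunit of cytochrome oxidase, had 61930 and 55900 CPM against 22140 to 42040 (median 32870), without overlap, and rose by 0.87 ± 0.09. MT-ND5, a subunit of complex I, had 1256 and 1182 CPM against 476 to 854 and rose by 0.86 ± 0.09. The list median turned to -0.09 with ERCC scaling, while MT-CO3 and MT-ND5 stayed at 0.12 each. Relative to other human transcripts these mRNAs were thus higher, and per ERCC count the list as a whole was close to DMSO.

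Of the erythroid effector genes, the products that mature red cells carry, 29 of 32 were tested, of which 10 rose and 0 fell. The list median was 0.32 and turned to -0.45 with ERCC scaling. HBG1, a fetal globin, had 10140 and 10280 CPM against 4934 to 8076 (median 7268) and rose by 0.54 ± 0.08 (adjusted p = 2.16e-09). HBA1, an alpha globin, had 1627 and 1724 CPM against 749 to 1376 and rose by 0.66 ± 0.11, and HBZ, an embryonic globin, rose by 0.52 ± 0.09. These 3 groups of wells did not overlap, but with ERCC scaling HBG1, HBA1 and HBZ stood at -0.21, -0.09 and -0.23. HBG1 and HBG2, like HBA1 and its copy, are nearly identical, so reads may be split between them.

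Cytosolic ribosomal protein genes, with long-lived mRNAs, had 56 rises and 0 falls among 85 tested of 87 (median 0.34, and -0.40 with ERCC scaling). RPL18 had 2858 and 2842 CPM against 1494 to 2318 and rose by 0.45 ± 0.07. Glycolysis genes had 5 rises and 2 falls among 17 tested. Beside them, 865 of all 3861 genes with a mean log2 CPM of 5 or more rose. The glycolysis median of 0.19 turned to -0.09 with library size and -0.57 with ERCC scaling. LDHA, lactate dehydrogenase, rose by 0.50 ± 0.08 (-0.24 with ERCC scaling), and GAPDH had 3624 and 4241 CPM against 2273 to 3655, a difference of 0.39 ± 0.09 that stood at -0.37 with ERCC scaling. Of 8 tested interferon response genes of 18, IFITM1, IFITM2 and IFITM3, antiviral membrane proteins, rose by 0.30 to 0.55, but against the 34 other treatments 0 members passed, with IFITM1 at 0.09, IFITM2 at 0.35 and IFITM3 at 0.13. The list median of 0.23 turned to -0.05 with library size and -0.52 with ERCC scaling.

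**Figure D3:**
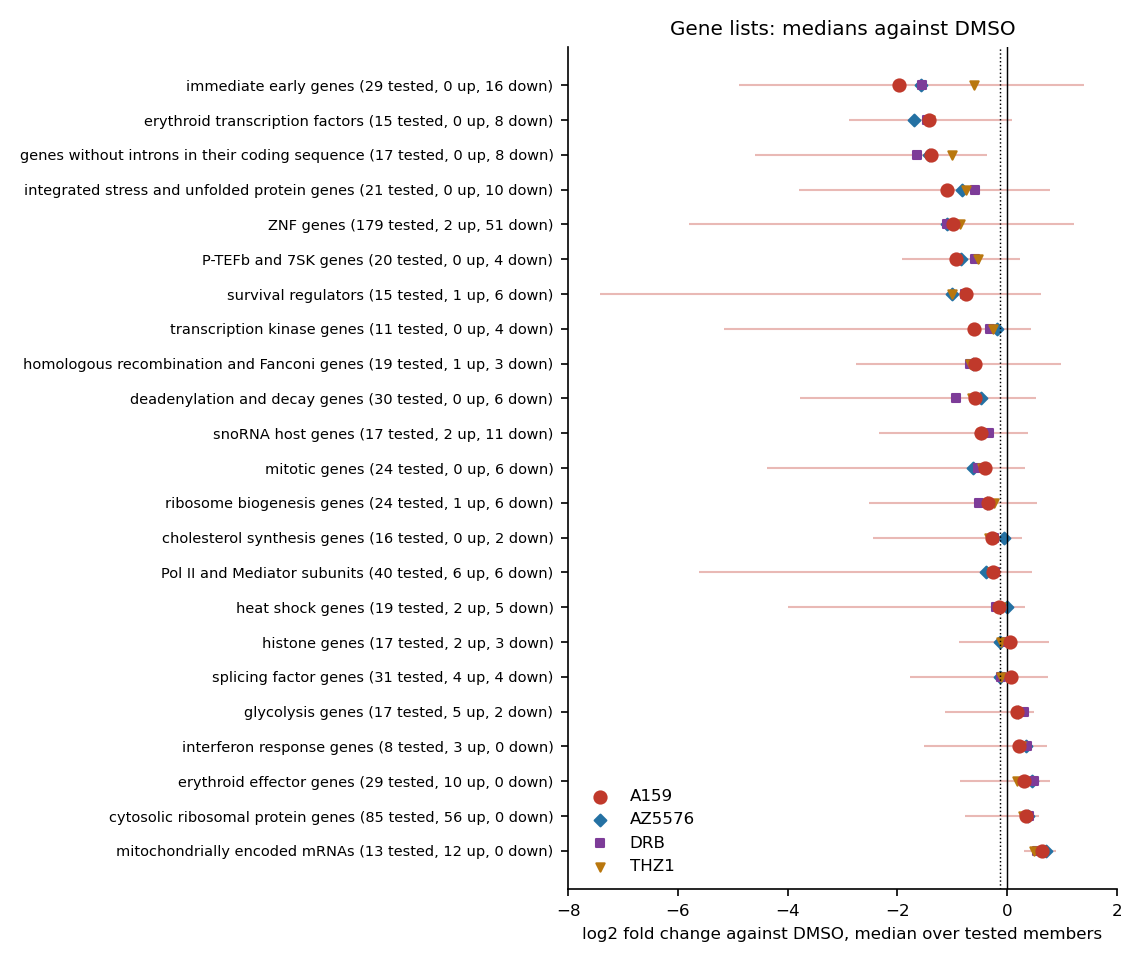
Median log2 difference from DMSO over the tested members of 23 gene lists for A159 (red circles, with a line from the lowest to the highest member), AZ5576, DRB and THZ1; the dotted line is the median of all genes in A159, and members called in A159 are counted beside each name. Immediate early genes are lowest at -1.96 and mitochondrially encoded mRNAs highest at 0.65, and with ERCC scaling the medians of splicing, histone, glycolysis, interferon, erythroid effector, ribosomal protein and mitochondrial lists all turn negative.

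Single genes with large rises included ENSG00000266658, for which the name tables used here give no symbol. It had 1122 and 1715 CPM against 108 to 246 (median 155), and the difference of 3.11 ± 0.11 (adjusted p = 2.17e-63) stayed at 2.35 with ERCC scaling. Only 3 of the 190 other wells lay above the higher A159 well. PPP1CB, a catalytic subunit of protein phosphatase 1, had 197 and 172 CPM against 44.8 to 112 (median 75.3) and rose by 1.26 ± 0.18. For PPP1CB 0 of the other 190 wells exceeded the higher A159 well.

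BMX, a TEC family tyrosine kinase, rose by 1.29 ± 0.22, to 64.2 and 65.3 CPM from 6.40 to 37.8. CHP1, a calcium-binding cofactor of sodium-proton exchangers, rose by 1.21 ± 0.17. The non-coding RNA CCDC26 rose by 1.20 ± 0.25. These 3 genes did not overlap DMSO, but with ERCC scaling they stood at 0.44 to 0.52 and no longer passed, nor did PPP1CB at 0.50. Against the 34 other treatments BMX and CCDC26 did not pass either, at 0.45 and 0.55. H3P16, a histone pseudogene, rose by 1.26 ± 0.12, but its reads cannot be told apart from those of its parent genes.

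The other 3 compounds differed from DMSO in unequal numbers of genes. AZ5576, with 6 wells, differed from DMSO in 47.3% of genes (1985 higher, 2896 lower), DRB in 28.5% (1325 and 1617) and THZ1 in 11.8% (561 higher, 5.44%, and 657 lower, 6.37%). Since these comparisons use the same DMSO wells as that of A159, their values are given side by side only. MYC was at -2.23 in A159, -2.82 in AZ5576, -2.26 in DRB and -2.02 in THZ1. KLF1 was at -2.88, -2.46, -3.98 and -2.0 in the same order, and DNAJB1 at -4.00, -2.92, -2.87 and -4.80. HBG1 was at 0.54, 0.60, 0.60 and 0.47, values that like that of A159 rest on TMM scaling. MCL1, which did not pass in A159, was at -1.40 in AZ5576 and -1.83 in DRB, both past the threshold, and at -0.55 in THZ1 (adjusted p = 0.31). Immediate early genes had 17 falls and 0 rises in AZ5576, 14 and 1 in DRB and 6 and 2 in THZ1, with medians of -1.58, -1.55 and -0.60 beside the -1.96 of A159. Mitochondrially encoded mRNAs rose in 13, 12 and 13 of 13 cases.

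The differences between A159 and each compound were tested as contrasts of the same model, in which all wells, DMSO included, enter the estimates of spread and of the plate term. These are 3 comparisons, each adjusted over its 10312 genes. Against AZ5576, 3 genes differed (0.0291% of those tested), 2 higher (0.0194%) and 1 lower (0.0097%) in A159, with 604 at an unadjusted p below 0.05. The count rose to 19 when only the wells of A159 and AZ5576 were fitted and to 11 with the AZ5576 wells of position 11 alone, whereas those of position 36 gave 0 and DESeq2 gave 1. The precision was moderate: over the 3861 genes whose mean log2 CPM was 5 or more, the 95% interval had a median half-width of 0.42 and lay within a 2-fold difference either way for 3400 (88.1%). For MYC the difference was 0.59 (95% interval -0.22 to 1.40), for KLF1 -0.43 (-1.18 to 0.33), for ID1 -0.06 (-0.89 to 0.77) and for DNAJB1 -1.07 (-2.04 to -0.11, adjusted p = 0.799). HBG1 at -0.06 (-0.23 to 0.11), MT-CO3 at -0.03 (-0.24 to 0.18) and ENSG00000266658 at -0.13 (-0.38 to 0.12) had narrow intervals around 0. A missed threshold does not show that A159 and AZ5576 act alike, and the calls rest on both A159 wells, since 0 genes passed without either of them.

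The 2 genes higher in A159 than in AZ5576 were CTNNB1 and LRRC75A. CTNNB1, which encodes beta-catenin, had 152 and 118 CPM in A159, 19.9 to 69.5 (median 45.9) in AZ5576 and 28.6 to 97.3 (median 56.2) in DMSO. It was above all wells of both groups and differed from AZ5576 by 1.47 ± 0.31 (adjusted p = 0.025). LRRC75A had 86.3 and 131 CPM, against 0 to 58.0 in AZ5576 and 6.22 to 76.3 in DMSO, and differed by 1.77 ± 0.39 (adjusted p = 0.0301). Within AZ5576 both genes differed between plate positions. CTNNB1 had 19.86 and 33.04 CPM at position 11 but 64.4 and 69.47 CPM at position 48. LRRC75A had 3.311 and 0 CPM at position 11 but 57.96 and 47.76 CPM at position 48. With position 11 alone 10 genes were higher in A159, and with position 36 or 48 alone 0 were. The part of the AZ5576 positions in these differences was not tested. HUNK, a kinase of the SNF1 family named here after its value was seen, was the gene that was lower. It had 1 read in each A159 well and 1 read in total over the 24 DMSO wells, but 14.7 to 52.9 CPM (median 26.1) in the 6 AZ5576 wells, which lie at 3 plate positions. Of the groups compared here only AZ5576 carries HUNK past the filter on low counts, so a test of it had to find A159 lower, and its values are a description. The 2 reads of A159 against 70 of AZ5576 give a ratio of 0.0821 (95% counting interval 0.00975 to 0.308). DRB wells had 3.64 and 2.33 CPM of HUNK and THZ1 wells 0.

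Against DRB, 24 genes differed (0.233%), 16 higher (0.155%) and 8 lower (0.0776%) in A159, with 697 at an unadjusted p below 0.05, and 44 differed when only the wells of A159 and DRB were fitted. DESeq2 called 6 and limma-voom 5. The calls numbered 6 or 4 without the A159 well of plate 1 or plate 2, and 5 or 9 without the DRB well of plate 1 or plate 2. ENSG00000266658 was among the higher genes, with 1122 and 1715 CPM in A159 and 789 and 667 CPM in DRB, a difference of 0.92 (95% interval 0.60 to 1.23, adjusted p = 0.000199). PPP1CB had 106 and 67.6 CPM in DRB and was higher in A159 by 1.07 (0.57 to 1.57, adjusted p = 0.0239). Among the lower genes UQCC4, an assembly factor of mitochondrial complex III, had 12.04 and 10.9 CPM in A159 and 50.9 and 37.3 in DRB (-1.95, interval -2.83 to -1.07).

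YTHDF2, a reader of N6-methyladenosine that sends mRNAs to decay, had 20.1 and 23.9 CPM in A159 and 74.6 and 55.9 in DRB (-1.59, interval -2.29 to -0.90). DRB wells had YTHDF2 within the DMSO range of 38.4 to 76.8 CPM, and A159 wells were below it. PPP1R15A showed the same order, with 40.01 and 23.3 CPM in DRB and a difference of -2.13 (-3.12 to -1.14, adjusted p = 0.0239). TMEM11, a mitochondrial inner membrane protein, and ZNF581 were lower in A159 than in DRB by 1.87 and 1.63 on the log2 scale. For MYC the difference was 0.03 (-0.88 to 0.94), for KLF1 1.10 (-0.06 to 2.26) and for ID1 1.17 (-0.06 to 2.40), so that these intervals include both 0 and a 2-fold difference or come close to it.

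Against THZ1, 20 genes differed (0.194%), 13 higher (0.126%) and 7 lower (0.0679%) in A159, with 585 at an unadjusted p below 0.05. DESeq2 called 2 and limma-voom 9. They numbered 6 or 5 without the A159 well of plate 1 or plate 2, and 3 or 2 without the THZ1 well of plate 1 or plate 2. SNAP47, a SNARE family protein, had 18.1 and 19.6 CPM in A159, 89.0 and 99.7 in THZ1 and 44.3 to 118 in DMSO, so that A159 lay below the DMSO range and THZ1 within it. The difference was -2.31 (95% interval -3.15 to -1.48, adjusted p = 0.000606). ATF4 had 30.1 and 30.5 CPM in A159 and 75.8 and 78.5 in THZ1 (-1.34, interval -2.0 to -0.68, adjusted p = 0.0487). IER2 had 58.2 and 39.2 CPM in A159 and 135 and 127 in THZ1 (-1.42, interval -1.99 to -0.84), where THZ1 was above the highest DMSO well and A159 was not.

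NDUFC2, a complex I subunit, had 255 and 300 CPM in A159 and 521 and 480 in THZ1 (-0.85, interval -1.13 to -0.57). PPP1CB was again higher in A159, by 1.25 (0.67 to 1.82, adjusted p = 0.0217), as was PPP2R5C, a regulatory subunit of protein phosphatase 2A, by 1.57 (0.87 to 2.29). MYC at -0.22 (-1.19 to 0.76) and KLF1 at -0.89 (-1.81 to 0.04) did not pass. The median half-width of the intervals was 0.56 over the genes whose mean log2 CPM was 5 or more, against 0.50 for DRB and 0.42 for AZ5576. The THZ1 wells held 352431 and 368080 human counts, fewer than the 512994 and 672855 of DRB.

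**Figure D4:**
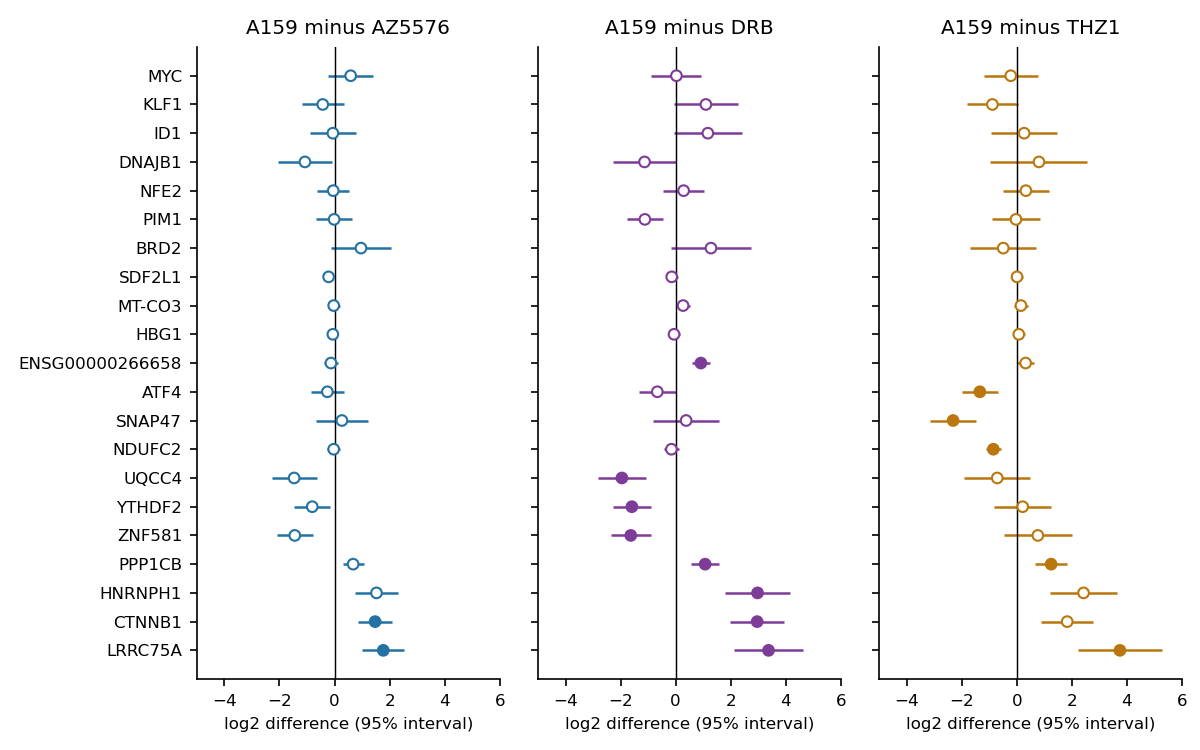
Log2 difference between A159 and AZ5576, DRB or THZ1 with 95% intervals for 21 genes, filled where the adjusted p was below 0.05; values right of 0 are higher in A159. MYC, KLF1, ID1, SDF2L1, MT-CO3 and HBG1 have open points in all 3 panels, while LRRC75A is filled in all 3 and SNAP47, ATF4 and NDUFC2 only against THZ1, without a test of the difference between panels.

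Several of the genes that separated A159 from the other compounds also differed between plate positions of the vehicle. Both plates carry 1 layout, so A159 lies in well 68 with the same barcode each time, and a compound cannot be told apart from its position and barcode. HNRNPH1, a splicing regulator, had 1056 and 927 CPM in A159 and was higher than in DRB by 2.98 (1.79 to 4.16), yet DMSO wells alone ran from 133 to 1273 CPM. The same positions were high or low on both plates: well 73 had 1271 and 1273 CPM and well 92 had 133 and 151 CPM. The well barcodes concerned are shown in capitals, for A159 and for these 2 DMSO positions.
A159, well 68: GTAAGAACCT
DMSO, well 73: AACCTCATAG
DMSO, well 92: GTCCGCATCA
Mean levels at DMSO positions ran from 28.5 to 150 CPM for TRA2A, a splicing activator, from 43.3 to 155 CPM for TOR1AIP2, a nuclear envelope protein, and from 21.6 to 123 CPM for ENSG00000267458, an antisense transcript whose reads cannot be told from those of its partner. They ran from 30.5 to 90.1 CPM for CTNNB1, from 10.7 to 74.9 CPM for LRRC75A and from 47.7 to 107 CPM for PPP1CB. For CTNNB1, LRRC75A and PPP1CB the A159 wells lay above all DMSO positions, and for HNRNPH1 and TRA2A within them. The positional range was narrower for KLF1, from 87.3 to 160 CPM, and for MYC, from 82.6 to 126 CPM, and the A159 wells lay far below both. The part of well position or barcode in the calls against DMSO, AZ5576, DRB and THZ1 was not tested.

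**Figure D5:**
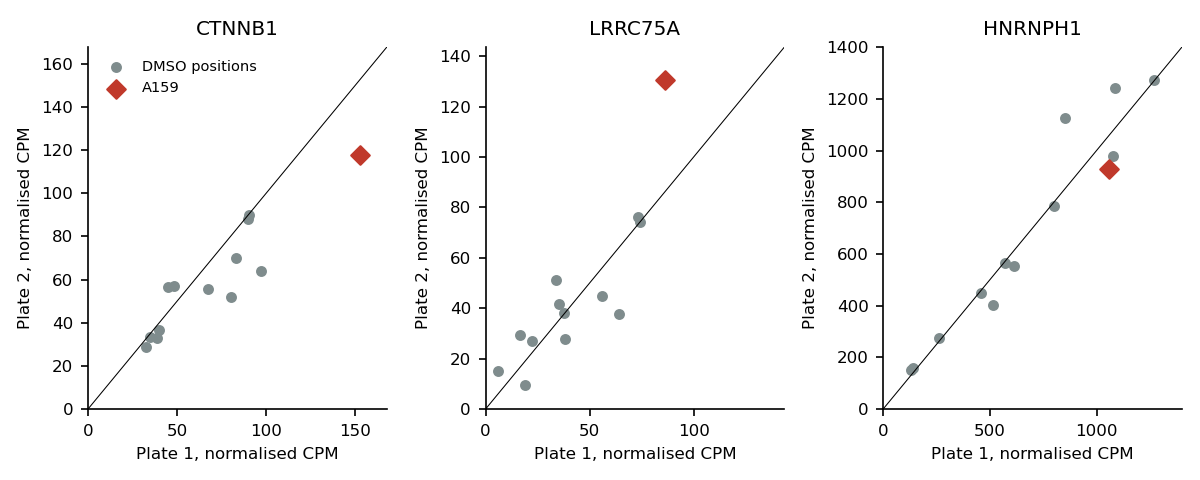
Normalised CPM on plate 1 (x axis) and plate 2 (y axis) of CTNNB1, LRRC75A and HNRNPH1 for the 12 DMSO positions (grey) and A159 (red), with the line of equal values. DMSO positions spread along the line, for HNRNPH1 from about 133 to 1273 CPM, and A159 lies outside them for CTNNB1 and LRRC75A and among them for HNRNPH1.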

How the data were processed

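The authors deposited 1 table per plate of counts per gene and well, labelled here estimated counts (expected counts) after 6 partly fractional summary lines. Those summary lines were left out, and they do not show how the gene counts were made. All 57905 gene lines and 92 ERCC lines hold whole numbers, so the label is not borne out by the gene values. The submitters' processing notes list cutadapt 2.1, FastQC 0.11.6, R 4.0.2 and bcl2fastq 2.17.1.14, and the build GRCh37 (hg19). Neither aligner nor counter is named, and strand setting and annotation are likewise not given in the sources used here. Whether a count is a read or a unique molecular identifier is not given in the sources used here, and single counts are called reads throughout. The A159 wells had 1.94 and 2.00 reads per unique molecular identifier. If reads were counted, amplified copies count more than once. Counting intervals and floors cover counting error only. A deposited annotation names the compound and barcode of each well. Columns of samples outside the annotation numbered 0.

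The gene tests used edgeR 4.0.16 (R 4.3.3) and all 192 wells: filterByExpr at its defaults (minimum count 10), TMM factors, 1 term per treatment, the plate as an additive term and the quasi-likelihood test with Benjamini-Hochberg adjustment at 0.05. The labels give 1 library per plate, so the plate is the block of the design. Wells of the same number on the 2 plates share a position and a barcode, but the model treats them as separate wells. Its p-values therefore cover the spread between positions only in part. Single values per well were compared with an exact two-sided permutation test that exchanged wells within a plate and, added after seeing the data, one that exchanged plate positions as pairs. Each SE is the absolute log2 difference divided by the square root of the F value of the quasi-likelihood test. The 95% intervals of log2 differences are symmetric and were built from that SE. Both are rough for genes with few reads. A table of Ensembl identifiers gave symbols for 51996 gene lines and 10103 of the 10312 genes tested. The tests were also run on simulated counts, with an outcome not reported here. Those counts held no plate, position or barcode effect, so the run cannot show how such effects bear on the p-values. Depth runs from 173553 to 1906446 human counts per well.

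Named genes were the 12 looked up everywhere, per direction the 10 largest changes against DMSO and the 5 largest against each other compound, among called genes whose mean log2 CPM was 5 or more and whose sign was the same in both A159 wells, and up to 4 members of each of 23 lists with the smallest p; not all are printed, and 2 are not reported here. The members and lists were chosen with earlier results of these data known, and lists are described by counts and medians only. Some genes, such as MYB, PPP1R15A and ZFP36L2, are in several lists, so their falls are counted in each. For genes named by their change or p, lack of overlap with DMSO and the limits of counting intervals are descriptions. The share of all genes without overlap is not given. Alternatives were library size and ERCC scaling, no filter, no plate term, limma-voom (limma 3.58.1), DESeq2 1.42.0, a fit of the compared groups alone, each A159, DRB or THZ1 well left out, each AZ5576 position alone, DMSO without the first plate column and, chosen after seeing the data, the 70 wells of 34 treatments with other targets as the reference.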

Additional observations from a re-analysis of the deposited data

Results flagged for a closer look

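Of 34 measures examined in the 6 AZ5576 wells for a single well far from the others, 1 stood apart: HUNK in AZ5576, where the highest of 6 wells had 52.9 CPM and the nearest other well 28.2 CPM, a gap of 0.646 of the whole range. Chance marks about 1 in 20 such groups. The lowest AZ5576 well had 14.7 CPM, above both A159 wells at 2.01 and 2.18 CPM. Of the groups compared here only AZ5576 carries HUNK past the filter on low counts, so this order is a description only.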

How the results depend on the processing

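Against DMSO, 2172 genes differed in A159 with the settings of the report. ERCC scaling raised this to 5611 (28 higher, 5583 lower), and leaving out 1 A159 well gave 769 to 947, where the lone well is assumed to vary like the other treatments. Other settings stayed within 1.5 times: library size 2360, no filter 1457, limma-voom 1936 (1050 higher, 886 lower), DESeq2 1471, the 2 groups alone 1696, no DMSO wells of the first column 1882, and 2226 with the 34 other treatments as the reference, chosen after seeing the data, of which 1793 were called against DMSO too. Without the plate block 2010 genes were called against DMSO, 18 against DRB and 16 against THZ1, and against AZ5576 the 3 calls dropped to 1.

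The direct comparisons moved more. Against AZ5576 (3 calls) ERCC scaling gave 1, DESeq2 1, the groups alone 19, the AZ5576 wells of position 11 gave 11, those of position 36 gave 0, and leaving out an A159 well 0 to 0. Against DRB (24 calls) ERCC scaling gave 12, DESeq2 6, limma-voom 5, the groups alone 44, and leaving out 1 A159 or DRB well 4 to 9. Against THZ1 (20 calls) ERCC scaling gave 13, DESeq2 2, limma-voom 9, and leaving out 1 well 2 to 6. ERCC scaling gave 8165 calls for AZ5576 against DMSO, 6772 for DRB and 5954 for THZ1, for which no filter gave 683.

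Human counts per ERCC count differed by -0.43 with all DMSO wells, by -0.60 (exact permutation p = 0.0123) without the first column, by -0.56 (p = 0.00231) against the 34 treatments and by -0.49 to -0.36 (p = 0.231) with 1 A159 well. With plate positions exchanged as pairs, added after seeing the data, its p was 0.231, and the mitochondrial share, 0.43 higher on the log2 scale, had p = 0.0769 (exact permutation tests), the smallest that 13 positions allow. List medians turned negative with ERCC scaling for erythroid effector (-0.45), splicing (-0.68), histone (-0.70), glycolysis (-0.57), interferon (-0.52), mitochondrial (-0.094) and ribosomal protein genes (-0.40), and with library size for splicing (-0.21), histone (-0.21), glycolysis (-0.087) and interferon genes (-0.054). HBG1 (-0.21) and GAPDH (-0.37) turned with ERCC scaling, and FOS, with 1 read, with ERCC scaling (-0.05) and, from 1.64 without the first A159 well, without the second (-2.32). The cause was not tested where a setting does not fix it.

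No setting separates the compound from its well position. Depth limits A159 to steps of about 2.01 CPM, so falls of low genes are bounded by a few reads.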
